A study of Mus musculus with 38 samples.

Results

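A set of 10 genes of renal tubular sodium transport was followed through 38 kidney RNA-Seq libraries from 3 mouse experiments. The 10 genes were chosen by symbol among the 55487 genes of the count table, and each was present once and passed the filter on low counts in every experiment. They comprise the apical transporters Slc9a3, Slc12a1 and Slc12a3, the epithelial sodium channel (ENaC) subunits Scnn1a, Scnn1b and Scnn1g, the kinases Wnk1, Wnk4 and Stk39, and Umod. In the anti-GBM experiment, male C57BL/6JRj mice received nephrotoxic serum at 8 weeks of age, 4 days after immunization with sheep IgG in adjuvant, which causes an immune-mediated glomerulonephritis, while healthy mice received PBS. From 1 day later they were given 6 daily intravenous injections of vehicle or of 1 µg recombinant human FGF23, a bone-derived hormone that lowers phosphate reabsorption. This gave 4 healthy mice with vehicle, 3 healthy with FGF23, 4 anti-GBM with vehicle and 3 anti-GBM with FGF23. In the Adriamycin experiment, female BALB/c mice received Adriamycin, a podocyte toxin, or its diluent at 8 weeks of age and 1 injection of vehicle or 1 µg FGF23 before the end of the experiment, with 4 mice in each of the 4 groups. The last injection preceded removal of the kidneys by 24 h. In the third experiment, precision-cut kidney slices (PCKS) from male DBA/2J mice fed 0.2% adenine, a model of toxic tubulointerstitial disease, taken at 23 weeks of age after 15 weeks of that diet, were cultured with vehicle or 200 ng/mL FGF23, with 4 cultures in each group and no slices from healthy mice. The sample labels give 1 h of FGF23 in the slices, and the methods text gives 24 h.

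Sodium is reabsorbed along the nephron by a different apical transporter in each segment, driven by the basolateral sodium pump. In the proximal tubule, and to a lesser extent in the thick ascending limb, Slc9a3 (NHE3) exchanges sodium for protons. In the thick ascending limb, Slc12a1 (NKCC2) takes up sodium with potassium and chloride, and the same cells secrete uromodulin, the product of Umod. In the distal convoluted tubule Slc12a3 (NCC) takes up sodium with chloride, and further downstream ENaC, built from an alpha, a beta and a gamma subunit encoded by Scnn1a, Scnn1b and Scnn1g, admits sodium alone. The kinases Wnk1 and Wnk4 act through the kinase SPAK, encoded by Stk39, to phosphorylate and activate both cotransporters. Transcript levels say nothing of that phosphorylation.

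The genes lie on 6 mouse chromosomes in build GRCm38, and Scnn1g and Scnn1b are neighbours on chromosome 7. Scnn1g spans 121734479 to 121768475 and Scnn1b spans 121865038 to 121918514, both on the plus strand with 96.6 kb between them. Slc9a3 spans 74121457 to 74169442 on the plus strand of chromosome 13. The 250 bases upstream of the start sites of Slc9a3, Scnn1g and Scnn1b are shown because these genes moved in opposite directions in anti-GBM disease. They are taken from RefSeq (GRCm38.p6), which held 9 of the 10 genes, and are written 5′ to 3′ on the gene's strand, with capitals marking GGGCGG or its reverse complement, the core of an Sp1 box.
Slc9a3, chr13:74121163-74121412: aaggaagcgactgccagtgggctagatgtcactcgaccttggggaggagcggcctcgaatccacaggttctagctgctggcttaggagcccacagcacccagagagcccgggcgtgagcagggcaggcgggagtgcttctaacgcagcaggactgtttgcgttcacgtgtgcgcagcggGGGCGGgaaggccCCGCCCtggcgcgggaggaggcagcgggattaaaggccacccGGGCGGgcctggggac
Scnn1g, chr7:121734229-121734478: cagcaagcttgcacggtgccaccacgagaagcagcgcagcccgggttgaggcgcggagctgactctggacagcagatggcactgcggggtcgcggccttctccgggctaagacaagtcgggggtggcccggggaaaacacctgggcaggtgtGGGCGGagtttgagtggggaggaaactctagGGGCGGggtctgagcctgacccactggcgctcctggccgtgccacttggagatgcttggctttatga
Scnn1b, chr7:121864788-121865037: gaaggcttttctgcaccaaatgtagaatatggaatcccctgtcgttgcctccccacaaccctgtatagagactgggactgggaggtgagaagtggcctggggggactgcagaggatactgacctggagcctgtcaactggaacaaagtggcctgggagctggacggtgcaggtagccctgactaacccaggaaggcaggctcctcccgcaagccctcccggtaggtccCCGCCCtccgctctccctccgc

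These windows held 3 matches for Slc9a3, 2 for Scnn1g and 1 for Scnn1b, searched on both strands. Of the 9 upstream windows, 7 held at least 1 match, against 32.7% of the 32851 windows of the same length in the reference table. The hexamer TGTTCT, a part of the sites bound by steroid hormone receptors, searched in the same way, was in 0 of the 9 windows and in 16.1% of all windows. The GC content was 67.6% upstream of Slc9a3, 65.2% upstream of Scnn1g and 60.8% upstream of Scnn1b, with a median of 52.4% over all windows. These matches describe the letters of the windows only. Cog7, a gene on the opposite strand, overlaps the span of Scnn1b without sharing exon bases. Its count relative to that of Scnn1b in the same library had a median of 117%. The strand setting of the counting was not given in the sources used here.

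Total counts ran from 13704248 to 23630210 per library in the anti-GBM experiment, from 15665050 to 27583911 in the Adriamycin experiment and from 11186925 to 16254987 in PCKS. Levels are CPM, the counts relative to the library total, scaled by TMM within each experiment, and a gene was called where edgeR's quasi-likelihood test gave a Benjamini-Hochberg adjusted p below 0.05 over all genes tested. In vivo the tissue was a fragment of the pars intermedia of 1 kidney per mouse, while the slices held cortex and medulla. In such bulk RNA fewer cells of a type and less RNA per cell cannot be told apart. In anti-GBM disease, markers of injured tubules (Havcr1, Lcn2, Krt20 and Vcam1) were all 4 called higher with vehicle, with summed levels of 350 to 724 CPM against 15.7 to 19.5 CPM in healthy mice with vehicle. The 5 immune and 3 fibroblast markers were also all called higher with vehicle, where 39.8% of all genes tested were called in either direction. Of the 6 proximal tubule markers 3 were called lower with vehicle, 2 with FGF23 and 5 over both treatments, with sums of 7720 to 12288 CPM against 11429 to 14524 CPM with vehicle and of 6622 to 8912 CPM against 11156 to 12818 CPM with FGF23. Of the 6 thick ascending limb markers 3 were called lower with vehicle (Egf, Cldn10 and Kcnj1), 1 with FGF23 (Egf) and 2 over both treatments, when 27.2% of all genes were called with FGF23 and 48.3% over both. Their sums did not overlap, with 965 to 1621 CPM in anti-GBM and 2163 to 2650 CPM in healthy mice with vehicle, and 1131 to 1674 CPM against 2037 to 2501 CPM with FGF23, and no marker was at 0. Egf alone stood at 654 to 1110 CPM in anti-GBM and at 1715 to 2109 CPM in healthy mice with vehicle. Over both treatments 2 of 5 distal convoluted tubule markers and 2 of 3 endothelial markers were called lower, 1 of 5 intercalated cell markers higher, 1 of 5 principal cell markers higher and 1 lower, 0 of 3 podocyte markers, 0 of 2 inner medulla markers tested and 1 of 2 liver markers, lower.

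Per kilobase of exon, Umod was the most abundant of the 10 genes in healthy C57BL/6 mice with vehicle, at 1241 ± 290 CPM per kb (SD, n = 4). Slc12a1 followed with 164 ± 80.8, Slc12a3 with 87.7 ± 31.1 and Wnk4 with 41.5 ± 5.08 CPM per kb. The ranges of Slc12a1 and Slc12a3 overlapped, so that their order did not exceed the spread between mice. Among the ENaC subunits, Scnn1a stood at 38.8 ± 3.44, Scnn1b at 19.7 ± 3.49 and Scnn1g at 16.9 ± 2.64 CPM per kb, and the last 2 overlapped. Slc9a3 stood at 31.6 ± 0.873, Wnk1 at 27.9 ± 4.56 and Stk39, the least abundant, at 6.58 ± 0.491 CPM per kb. In healthy BALB/c mice with vehicle Umod, Slc12a1, Slc12a3 and Wnk4 again took the first 4 places. The lengths join all annotated exons of a gene, for example 11.1 kb for Slc12a3 and 5.76 kb for Slc12a1. The order of the genes depends on these lengths. Wnk1 has an exon length of 22.8 kb when all its isoforms are joined, and its counts do not separate the full-length kinase from its shorter kidney form.

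The first question was how anti-GBM disease changed the sodium transport genes. With vehicle, Slc9a3 was lower, and all 3 ENaC subunits were higher, in each of the 4 anti-GBM mice than in any of the 4 healthy mice. The share of all genes that separated the mice in this way was not counted. Of the 10 genes 3 were called higher and 1 lower, while 39.8% of all 15859 genes tested were called, so the share of sodium transport genes called was close to that of the whole table. Their median log2 fold change was 0.12, against -0.01 over all genes tested.

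Slc9a3 stood at 179, 171, 169 and 176 CPM in the healthy mice with vehicle and at 114, 109, 102.3 and 118 CPM in the anti-GBM mice with vehicle. The groups did not overlap, and the 4 mice within each lay close together. The log2 fold change was -0.65 with an SE of 0.12 and an adjusted p of 0.000786 (edgeR), which is 63.7% of the healthy level. With FGF23, levels were 186, 168 and 182 CPM in healthy mice and 113, 99.3 and 162 CPM in anti-GBM mice. Mouse NTS16, at 162 CPM, was near the healthy range while the other 2 anti-GBM mice were well below it. The log2 fold change with FGF23 was -0.52 (SE 0.14, edgeR adjusted p = 0.0118), and this call was lost without mouse NTS13 (adjusted p = 0.0602) or NTS14 (adjusted p = 0.0521). The proximal tubule markers, which are expressed in the same segment, had a median log2 fold change of -0.52 over both treatments, against -0.58 for Slc9a3. The thick ascending limb also expresses Slc9a3, and its summed markers, of which Egf was the largest part, were lower as well. The median log2 fold change over these limb markers was, however, much smaller than that over the proximal tubule markers. The part of both segments' markers in the lower Slc9a3 was not tested.

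Scnn1b, the beta subunit of ENaC, stood at 44.0, 43.9, 61.6 and 57.6 CPM in healthy mice with vehicle and at 90.9, 71.2, 63.1 and 75.4 CPM in anti-GBM mice with vehicle. Scnn1g, the gamma subunit, stood at 46.6, 42.7, 60.9 and 52.3 CPM in healthy mice and at 82.7, 67.7, 61.9 and 68.7 CPM in anti-GBM mice. In both genes the lowest anti-GBM mouse was only just above the highest healthy mouse. The log2 fold changes were 0.54 (SE 0.14, edgeR adjusted p = 0.00815) for Scnn1b and 0.47 (SE 0.14, edgeR adjusted p = 0.0184) for Scnn1g. Scnn1a, the alpha subunit, stood at 155, 143, 168 and 175 CPM in healthy mice and at 195, 188, 209 and 279 CPM in anti-GBM mice, a log2 difference of 0.44 (SE 0.14, edgeR adjusted p = 0.0183). Mouse NTS8 carried the highest level of Scnn1a, and without it the log2 fold change was 0.35 and still called. Of the 5 principal cell markers, which belong to the main ENaC-expressing cells, Hsd11b2 was called higher in anti-GBM mice with vehicle and no other was called. Their summed level was 422 to 696 CPM in anti-GBM mice and 367 to 454 CPM in healthy mice, so these ranges overlapped, and none of the 5 was at 0.

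**Figure D1:**
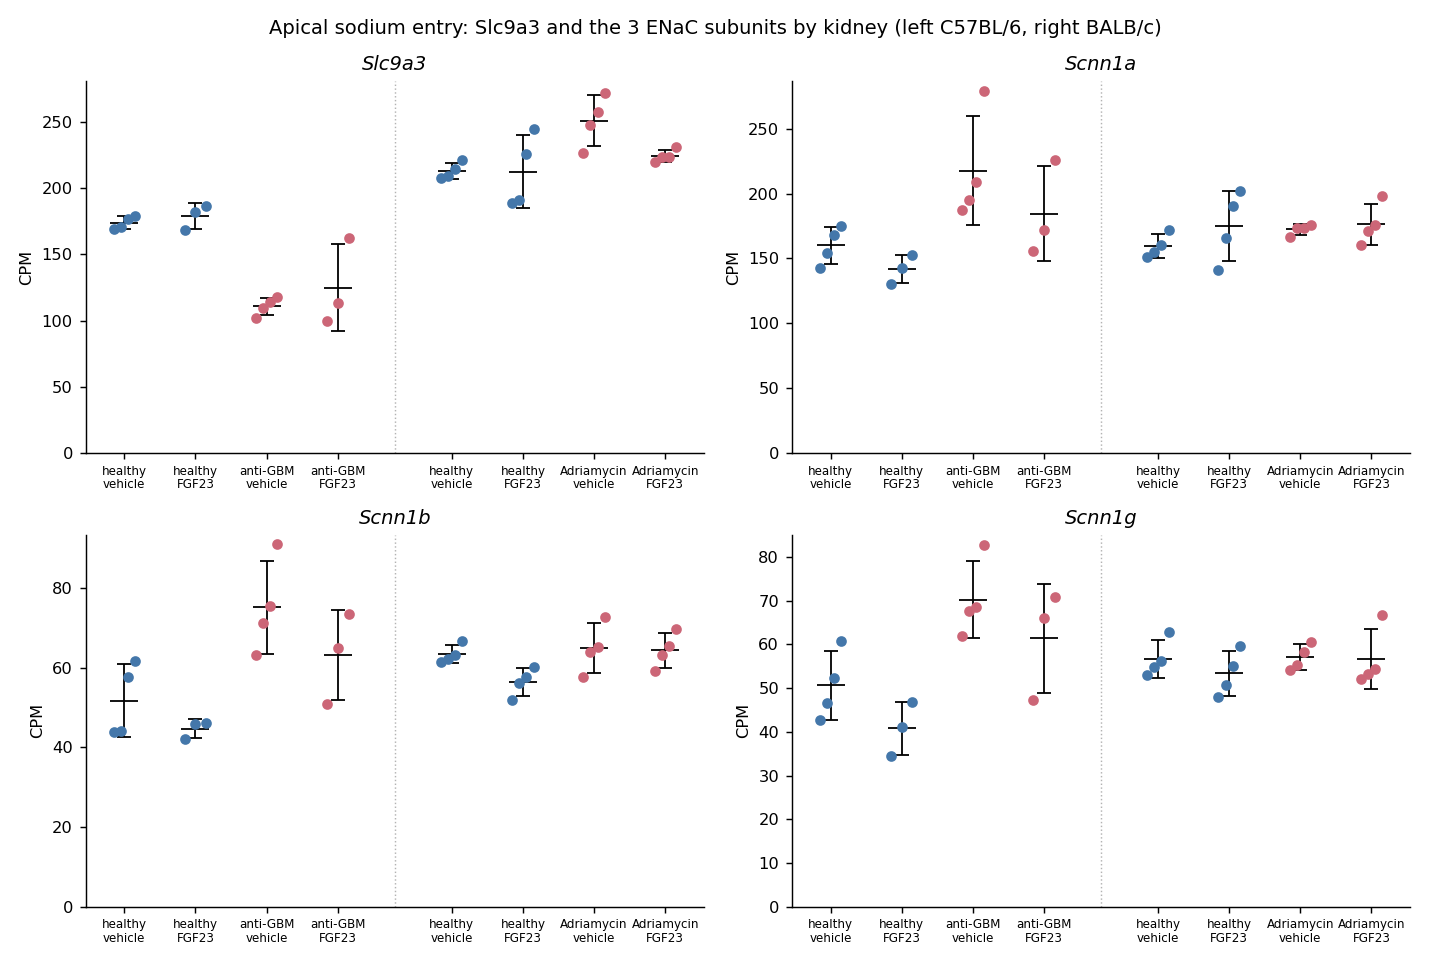
CPM of Slc9a3 and of the 3 ENaC subunits in the 30 kidneys of both in vivo experiments, with 1 point per mouse, blue for healthy and red for diseased mice, and bars for the mean and SD. Slc9a3 was at 102.3 to 118 CPM in the 4 anti-GBM mice with vehicle and at 169 to 179 CPM in their healthy controls, whereas the ENaC subunits were shifted the other way.

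With FGF23, the ENaC subunits were again higher in anti-GBM than in healthy mice, and 3 of the 10 genes were called against 27.2% of all genes. Scnn1b was at 46.1, 46.0 and 42.0 CPM in healthy mice and at 51.0, 73.5 and 65.0 CPM in anti-GBM mice (log2 fold change 0.50, SE 0.16, edgeR adjusted p = 0.0363). Scnn1g was at 46.8, 41.1 and 34.6 CPM in healthy mice and at 47.3, 66.1 and 70.8 CPM in anti-GBM mice (log2 fold change 0.59, SE 0.17, edgeR adjusted p = 0.0184). Neither gene overlapped between groups, although mouse NTS13 lay next to the healthy range in both. The share of all genes without overlap was not counted here either. These calls rested on single mice: 0 of the 10 genes were called without NTS14, 1 without NTS11, 1 without NTS16 and 5 without NTS8. Scnn1a had a log2 fold change of 0.38 that was not called (SE 0.16, edgeR adjusted p = 0.0865).

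Averaged over vehicle and FGF23, which uses all 14 mice, 6 of the 10 genes were called, 5 higher and 1 lower, against 48.3% of all genes. Slc9a3 had a log2 fold change of -0.58 (SE 0.09, edgeR adjusted p = 0.000121). The ENaC subunits had log2 fold changes of 0.41 for Scnn1a, 0.52 for Scnn1b and 0.53 for Scnn1g, each called with any 1 mouse left out. Among the kinases, Stk39 rose by 0.36 on the log2 scale (SE 0.10, edgeR adjusted p = 0.00984). It stood at 33.05, 34.7, 29.1 and 33.6 CPM in healthy mice with vehicle, and at 32.7, 40.4, 33.6 and 54.4 CPM in anti-GBM mice with vehicle, where the groups overlapped. With FGF23 it stood at 30.8, 35.2 and 31.4 CPM against 40.6, 46.7 and 42.6 CPM, with no overlap. How many of all genes did so was not counted. Wnk4 had a log2 fold change of 0.21 (SE 0.08, edgeR adjusted p = 0.0444), and that call was lost when any 1 of the mice NTS6, NTS9, NTS10, NTS14 and NTS16 was left out, with adjusted p up to 0.108. Wnk1 had a log2 fold change of -0.12 (95% interval -0.38 to 0.13) and was not called.

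The cotransporters and Umod were not called in anti-GBM disease, and they varied widely between mice of 1 group. Slc12a1 stood at 1601, 905, 513 and 768 CPM in healthy mice with vehicle and at 195, 778, 417 and 836 CPM in anti-GBM mice with vehicle. Its log2 fold change of -0.77 had an SE of 0.40 (edgeR adjusted p = 0.145) and was -0.34 without healthy mouse NTS1. With FGF23 it stood at 650, 1091 and 1192 CPM in healthy mice and at 747, 740 and 943 CPM in anti-GBM mice, and the log2 fold change averaged over treatments was -0.52, with a 95% interval of -1.17 to 0.14. Slc12a3 stood at 629, 764, 1115 and 1392 CPM in healthy mice and at 1340, 722, 1045 and 786 CPM in anti-GBM mice, so the groups covered nearly the same range. Its log2 fold change averaged over treatments was 0.01, with a 95% interval of -0.36 to 0.38. Umod stood at 4476, 3635, 2797 and 2810 CPM in healthy mice and at 1169, 4211, 2767 and 5297 CPM in anti-GBM mice, where it was both lowest and highest. Its averaged log2 fold change was 0.08, with a 95% interval of -0.45 to 0.62. The summed markers of the thick ascending limb, the segment of Slc12a1 and Umod, were lower in disease, and Egf was the largest part of that sum. The median log2 fold change over the 6 markers was only -0.04, and their part in these values was not tested. These intervals leave room for changes of the size seen in Slc9a3 for Slc12a1 and, upward, for Umod.

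The wide spread had an order. After the group means were removed, Slc12a1 and Umod varied together in log2 CPM over the 14 mice of the anti-GBM experiment (Pearson r = 0.90) and over the 16 mice of the Adriamycin experiment (r = 0.91). Slc12a3 varied the other way from Slc12a1, with r = -0.78 and r = -0.82, and Wnk1 varied against Umod with r = -0.81 and r = -0.70. Scnn1b and Scnn1g varied together, with r = 0.88 and r = 0.75. These are descriptions over libraries that share their depth and their dissection, with no test. The summed level of 3 inner medulla markers (Slc14a2, Aqp4 and Bdkrb1) varied with Slc12a1, with r = 0.93 in the anti-GBM and r = 0.86 in the Adriamycin experiment, and against Slc12a3, with r = -0.72 and r = -0.77. That sum ran from 1.40 to 86.2 CPM within the 4 healthy C57BL/6 mice with vehicle alone, where 1 of the 3 markers was at 0 in every mouse. The anti-GBM mouse NTS5 had the lowest sum, 1.02 CPM, together with the lowest Slc12a1, 195 CPM, the lowest Umod, 1169 CPM, and a high Slc12a3, 1340 CPM. Without NTS5, 5 of the 10 genes were called in anti-GBM mice with vehicle, the fifth being Stk39, and 6 over both treatments. NTS5 also had the highest Scnn1b, Scnn1g and Wnk4 of the 14 mice, at 90.9, 82.7 and 234 CPM. The inner medulla sum had r = -0.50 and r = -0.68 with Scnn1b in the anti-GBM and Adriamycin experiments. With Scnn1g it had r = -0.51 and -0.35, with Scnn1a 0.07 and -0.13, and with Slc9a3 0.09 and 0.52. The summed proximal tubule markers had r = 0.81 and 0.74 with Scnn1b, and 0.30 and -0.58 with Slc9a3. The summed principal cell markers had r = 0.33 and -0.26 with Scnn1b. How much medulla each fragment held was not measured, and its part in these levels, also those of the called genes, was not tested.

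**Figure D2:**
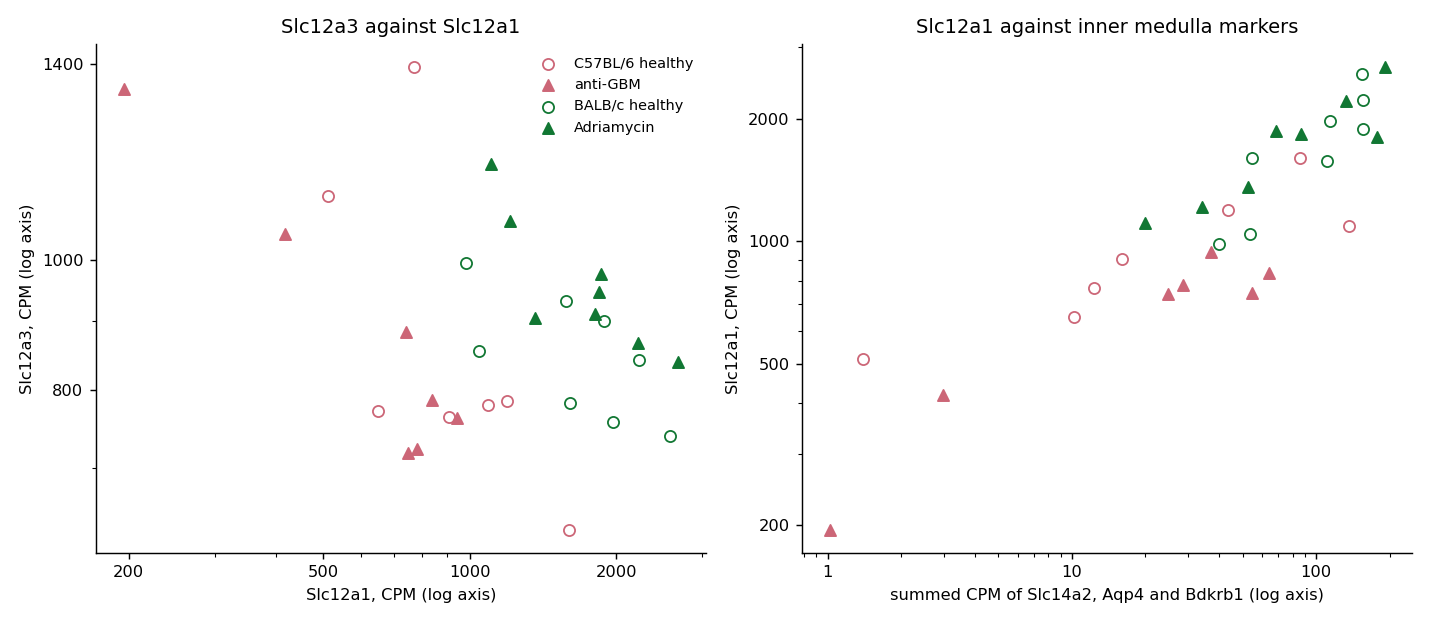
Left, CPM of Slc12a3 against CPM of Slc12a1 in the 30 kidneys, and right, CPM of Slc12a1 against the summed CPM of 3 inner medulla markers, all on log axes, with open circles for healthy and triangles for diseased mice. Mice with high Slc12a1 had high medulla markers, and the mouse at 195 CPM of Slc12a1 had a marker sum of 1.02 CPM.

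The same removal of group means was used to find the genes whose levels followed each member most closely among 14178 genes over the 30 in vivo kidneys. For Slc12a1 these were Pla1a (r = 0.97), Pou3f3 (r = 0.97) and Sim2 (r = 0.96), and for Umod Tmem207 (r = 0.95), Irx2 (r = 0.95) and Cldn19 (r = 0.93), a tight junction claudin of the thick ascending limb. For Slc12a3 they were Slc4a9 (r = 0.90), Iffo1 (r = 0.88) and Sema4a (r = 0.87). Scnn1g was followed by Atp6v1g3 (r = 0.90), Rhcg (r = 0.89) and Scnn1b (r = 0.85), and Scnn1b by Atp6v1b1 (r = 0.89), Faah (r = 0.89) and Atp6v1g3 (r = 0.87). Atp6v1g3 and Atp6v1b1 encode proton pump subunits and Rhcg an ammonia transporter of intercalated cells, the other cell type of the collecting duct. Scnn1a was followed by other genes, Defb1 (r = 0.82), Plpp1 (r = 0.77) and Vegfb (r = 0.76). Stk39 was followed by Gal3st1 (r = 0.94), Slc2a1 (r = 0.90) and Slc6a12 (r = 0.88), and Wnk1 by Fam210a (r = 0.92), Chrna4 (r = 0.89) and Add3 (r = 0.89). The closest genes were less close for Slc9a3, with Syvn1 at r = 0.81, Cox7a1 at r = 0.73 and Usp2 at r = 0.72, and for Wnk4, with Slc38a1 at r = 0.78, Cntd1 at r = 0.77 and Rsad2 at r = 0.77. These values are descriptions with no test.

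A list of 38 further genes of tubular salt transport was read alongside. In anti-GBM mice with vehicle 3 of the 38 were called higher and 16 lower, with FGF23 5 higher and 8 lower, and over both treatments 5 higher and 17 lower. The shares of all genes called in these comparisons were 39.8%, 27.2% and 48.3%. The median log2 fold change over both treatments was -0.14, against -0.02 over all genes. The regulators of ENaC were split. Sgk1, a kinase induced by corticosteroids that raises ENaC at the cell surface, stood at 51.3 to 67.6 CPM in healthy mice with vehicle and at 237 to 460 CPM in anti-GBM mice with vehicle, and its averaged log2 fold change was 1.89 (SE 0.26, edgeR adjusted p = 4.14e-05). Nedd4l, a ubiquitin ligase that removes ENaC, rose by 0.36 and Hsd11b2, which shields the mineralocorticoid receptor from glucocorticoids, by 0.46 on the log2 scale. Slc4a8, a sodium-bicarbonate exchanger, was also called higher, with a log2 fold change of 0.35. Nr3c2, the mineralocorticoid receptor itself, fell by 0.33, and Furin, a protease that cleaves ENaC, by 0.31. With FGF23 Prss8, another such protease, fell by 0.49. Klhl3 and Cul3, which together mark the WNK kinases for degradation, fell by 0.59 and 0.42 (edgeR adjusted p = 0.00151 and 6.41e-05). Oxsr1, the kinase most like SPAK, fell by 0.13, Wnk2 by 0.70, the basolateral potassium channel gene Kcnj16 by 0.39 and Egf, made in the thick ascending limb and distal convoluted tubule, by 0.94. Kcnj1, the apical potassium channel of the thick ascending limb, had a log2 fold change of -0.15 that was not called (edgeR adjusted p = 0.12), although it was called with vehicle alone at -0.33. Hsd11b2 also stands in the marker list of principal cells, and Kcnj1 and Egf in that of the thick ascending limb.

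The second question was whether Adriamycin had a like effect. With vehicle 0 of the 10 genes were called by edgeR or by DESeq2, against 0.331% of 16020 genes tested, and 1 had an unadjusted p below 0.05. With FGF23 0 were called by either tool against 0.699% of all genes, again with 1 below an unadjusted p of 0.05. Over both treatments 0 were called by either tool against 1.94% of all genes, and 3 were below an unadjusted p of 0.05. The counts at an unadjusted p are given without the share over all genes and are not read as results. All 10 averaged log2 fold changes lay between 0.02 and 0.18, with a median of 0.08 against -0.01 over all genes tested.

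Slc9a3 had the smallest p of the 10 genes with vehicle and over both treatments, and Scnn1b with FGF23 (log2 fold change 0.19, edgeR adjusted p = 0.257). Slc9a3 stood at 221, 208, 209 and 215 CPM in healthy BALB/c mice with vehicle and at 248, 272, 258 and 227 CPM in Adriamycin mice with vehicle. These groups did not overlap, and the share of all genes without overlap was not counted. The log2 fold change was 0.24 (SE 0.07), but it failed the correction over all genes (edgeR adjusted p = 0.305). With FGF23 it stood at 189, 191, 225 and 245 CPM in healthy and at 224, 223, 220 and 231 CPM in Adriamycin mice, so the groups overlapped. Its averaged log2 fold change was 0.16 (SE 0.05, edgeR adjusted p = 0.147), and it was called only when healthy mouse Ad12 was left out, at 0.20 with an adjusted p of 0.0309. Slc12a3 and Scnn1b were the other 2 below an unadjusted p of 0.05, with averaged log2 fold changes of 0.18 and 0.11. The narrow 95% intervals of Scnn1a, from -0.07 to 0.20, and of Scnn1g, from -0.08 to 0.17, did not reach the anti-GBM values of these genes. Of the 38 further genes 1 was called, Sgk1 with FGF23, at 301, 377, 451 and 166 CPM in Adriamycin mice and 151, 113, 163 and 149 CPM in healthy mice (log2 fold change 1.17, SE 0.23, edgeR adjusted p = 0.0267).

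**Figure D3:**
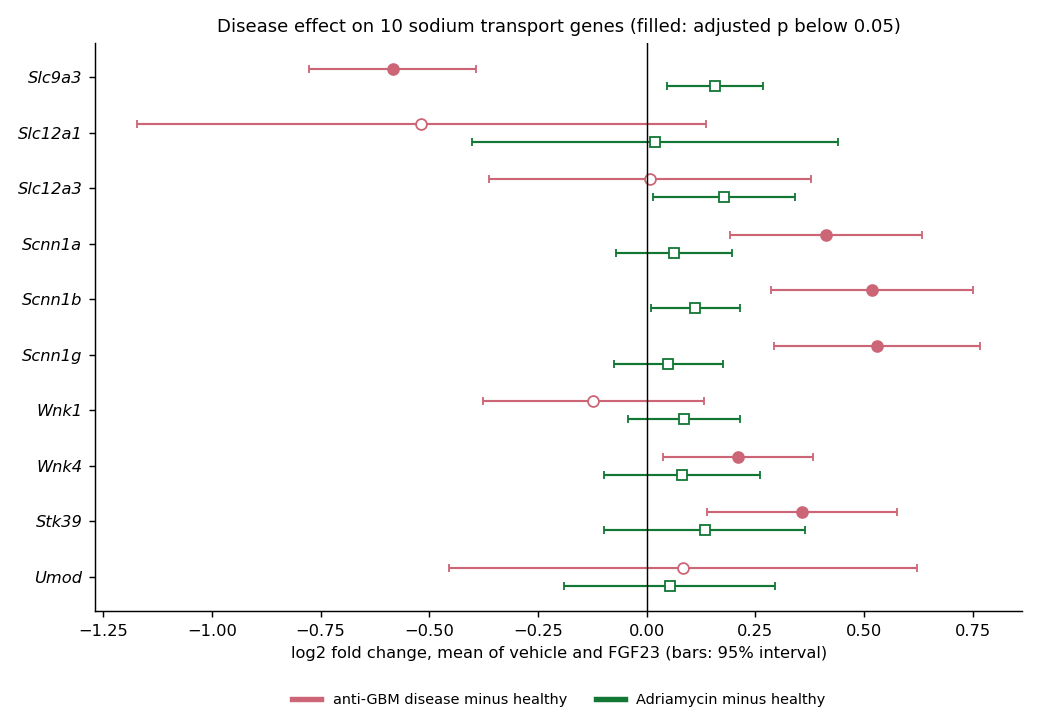
Log2 fold change of diseased against healthy kidneys for the 10 genes, averaged over vehicle and FGF23, with 95% intervals, red circles for anti-GBM disease and green squares for Adriamycin, and filled symbols where the adjusted p was below 0.05. In anti-GBM disease Slc9a3 was at -0.58 and the ENaC subunits at 0.41 to 0.53, while all Adriamycin values lay between 0.02 and 0.18.

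The difference between the disease effects was tested in 1 fit of all 30 kidneys, and 4 of the 10 genes were called, against 41.6% of 16954 genes tested. Slc9a3 differed by -0.74 on the log2 scale (SE 0.10, edgeR adjusted p = 2.11e-06), being called lower in anti-GBM disease and not called after Adriamycin. Scnn1g differed by 0.48 (SE 0.13, edgeR adjusted p = 0.00278), Scnn1b by 0.41 (SE 0.12, edgeR adjusted p = 0.00606) and Scnn1a by 0.35 (SE 0.12, edgeR adjusted p = 0.0198). The call of Scnn1a was lost without mouse NTS14, at 0.27 with an adjusted p of 0.0611. The other 6 genes were not called, and their differences ran from -0.54 for Slc12a1 to 0.23 for Stk39. Of the 38 further genes 4 were called higher and 15 lower, among them Cul3, Furin, Egf, Kcnj16 and Klhl3 with the smallest p on the lower side and Nedd4l, Sgk1 and Slc4a8 on the higher side. The experiments also differed in strain, sex and the number of injections, so that the disease model cannot be told apart from these. The summed injured tubule markers were higher in anti-GBM disease and not after Adriamycin. With vehicle they stood at 51.3 to 110 CPM in Adriamycin mice and at 98.3 to 184 CPM in healthy BALB/c mice. With FGF23 they stood lower without overlap, at 62.3 to 91.0 CPM against 105 to 123 CPM. The part of these markers in the differences was not tested.

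The third question was whether FGF23 changed the sodium transport genes. In none of the 5 comparisons of FGF23 with vehicle was any of the 10 genes called, by edgeR or by DESeq2. In healthy C57BL/6 mice 0 of the 10 were called against 0% of all genes, and in anti-GBM mice 0 were called against 0.24% of all genes, with 0 below an unadjusted p of 0.05 in both. The difference of these FGF23 effects between anti-GBM and healthy mice was called for 0 of the 10 genes against 0.0315% of all genes, with 0 below an unadjusted p of 0.05. In healthy BALB/c mice 0 were called against 0% and in Adriamycin mice 0 against 0.0375% of all genes, each with 1 gene below an unadjusted p of 0.05. The difference of the FGF23 effects in the Adriamycin experiment was called for 0 genes against 0%, with 0 below an unadjusted p of 0.05. Of the further genes 0 were called by edgeR in each FGF23 comparison, out of 38 tested in vivo and 37 in the slices, with between 1 and 9 below an unadjusted p of 0.05. The shares of all genes below that p are not given here, so these counts are not read as results.

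The sizes that these data allow differed between genes. For Slc9a3 the log2 fold change with FGF23 was 0.04 (95% interval -0.23 to 0.31) in healthy C57BL/6 mice and 0.17 (-0.10 to 0.45) in anti-GBM mice. In healthy BALB/c mice it was -0.00 (-0.16 to 0.15), and in Adriamycin mice, where it had an unadjusted p of 0.0421, it was -0.16 (-0.32 to -0.01) with an edgeR adjusted p of 0.869. Scnn1b was at 60.1, 57.6, 56.0 and 51.9 CPM in healthy BALB/c mice with FGF23, below all 4 mice with vehicle at 61.4, 66.6, 63.2 and 62.1 CPM. Its log2 fold change of -0.17 (95% interval -0.31 to -0.02) failed the correction (edgeR adjusted p = 0.689). The share of all genes separated in this way was not counted. In healthy C57BL/6 mice Scnn1b had a log2 fold change of -0.21 (-0.54 to 0.12) and in anti-GBM mice of -0.25 (-0.58 to 0.07). For Slc12a3 the values were -0.32 (-0.85 to 0.20) in healthy C57BL/6 mice, -0.31 (-0.83 to 0.22) in anti-GBM mice, -0.03 (-0.26 to 0.21) in healthy BALB/c mice and 0.07 (-0.16 to 0.30) in Adriamycin mice. Slc12a1 had the widest intervals in vivo, from -0.37 to 1.46 in anti-GBM mice and from -0.98 to 0.21 in Adriamycin mice, so that the former includes a log2 fold change of 1. Sgk1, called in neither FGF23 comparison of the anti-GBM experiment, stood at 101.7, 121 and 253 CPM in anti-GBM mice with FGF23 and at 237 to 460 CPM with vehicle.

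**Figure D4:**
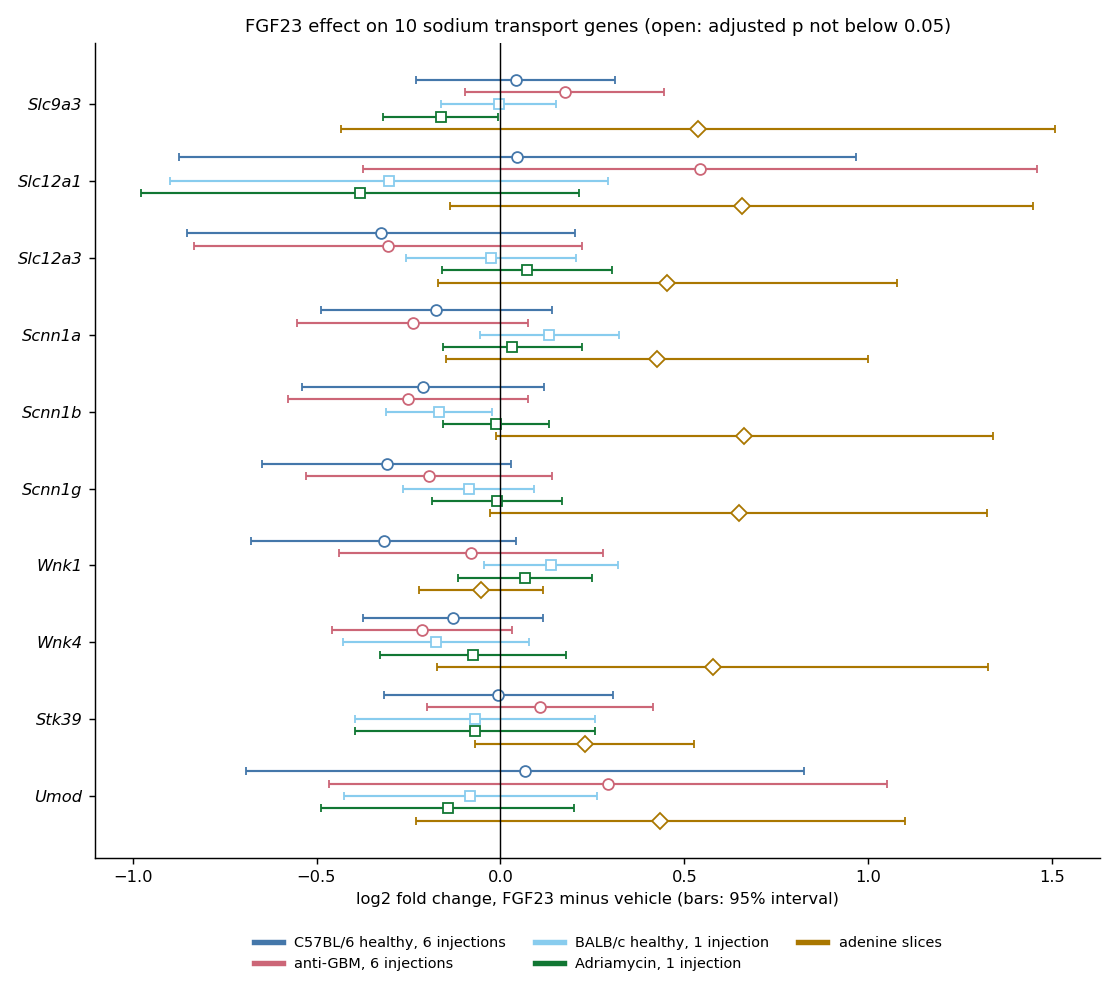
Log2 fold change of FGF23 against vehicle for the 10 genes in the 5 settings of the study, with 95% intervals, and all symbols open because no adjusted p was below 0.05. Slc12a1 had the widest intervals in vivo, and in the slices 9 of the 10 values lay above 0.

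In PCKS, 9 of the 10 genes had a positive log2 fold change with FGF23 and none was called, against 0% of 15090 genes tested, with 0 below an unadjusted p of 0.05 and 0 called by DESeq2. The median was 0.49, against -0.01 over all genes tested. Scnn1b stood at 19.6, 18.3, 25.7 and 19.4 CPM with vehicle and at 59.4, 21.2, 31.1 and 19.997 CPM with FGF23 (log2 fold change 0.66, SE 0.31, edgeR adjusted p = 0.849). Slc12a1 stood at 816, 297, 636 and 250 CPM with vehicle and at 1164, 712, 720 and 553 CPM with FGF23 (log2 fold change 0.66, SE 0.36, edgeR adjusted p = 0.849). Wnk4 stood at 103, 57.1, 116 and 65.5 CPM with vehicle and at 236, 84.8, 96.5 and 92.7 CPM with FGF23. In these genes the groups overlapped, and FGF23 culture 1 was the highest of the 8 cultures. Without that culture the median over the 10 genes was 0.14 and the log2 fold change was 0.22 for Scnn1b, 0.41 for Slc12a1, 0.10 for Wnk4 and 0.04 for Slc9a3. The summed level of the 5 principal cell markers was 452 CPM in FGF23 culture 1, whereas it was 50.5 to 96.5 CPM in the other 3 FGF23 cultures and 21.7 to 71.0 CPM in the vehicle cultures. FGF23 culture 1 was also the highest of the 8 cultures for the summed markers of the proximal tubule (1026 CPM against 353 to 637 CPM), the thick ascending limb (1298 against 353 to 932 CPM), the distal convoluted tubule (361 against 220 to 299 CPM), the inner medulla (280 against 31.98 to 119 CPM) and intercalated cells (85.2 against 58.8 to 75.2 CPM). All 5 principal cell markers had positive log2 fold changes, 0 were called and none was at 0. An unadjusted p below 0.05 was found for 3 of them, and the share of all genes below it is not given here. The part of these segments in the slice values was not tested. Wnk1 was the exception to the direction, at 288, 295, 315 and 279 CPM with vehicle and 268, 290, 289 and 288 CPM with FGF23 (log2 fold change -0.05, 95% interval -0.22 to 0.12).

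**Figure D5:**
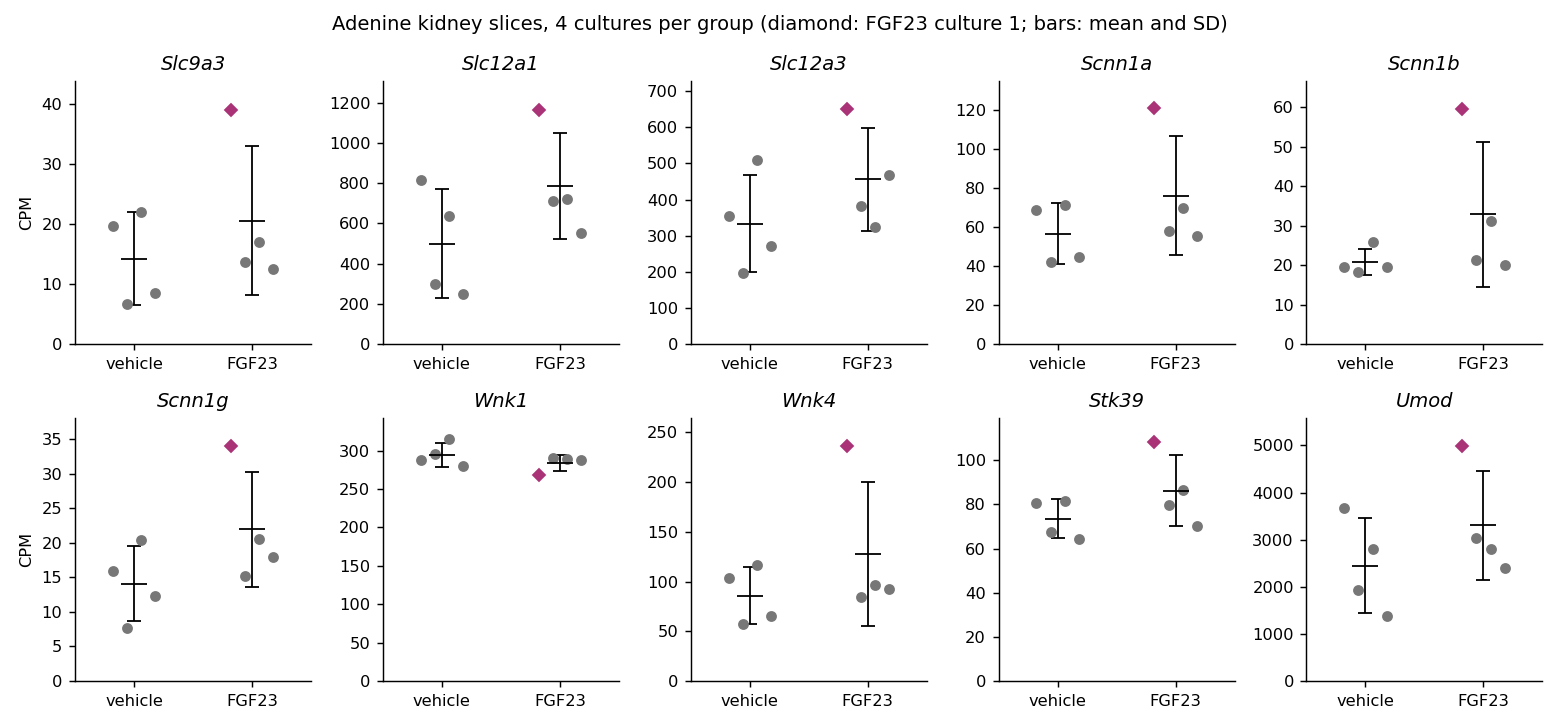
CPM of the 10 genes in the 8 slice cultures, with 1 point per culture, a diamond for FGF23 culture 1, and bars for the mean and SD. In 9 of the 10 genes the diamond is the highest point, and in Wnk1, at 268 CPM, it is the lowest.

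Levels in the slices also stood apart from those in vivo. The slices, however, differed from both in vivo experiments in strain, age, disease, culture and the kidney region taken, and were scaled separately. Slc9a3 was at 6.74 to 39.03 CPM in the slices and at 99.3 to 272 CPM in the 30 kidneys. Scnn1g was at 7.67 to 33.9 CPM in the slices and at 34.6 to 82.7 CPM in the kidneys, so that neither gene overlapped. Scnn1a, at 41.9 to 121 against 130 to 279 CPM, and Wnk1, at 268 to 315 against 406 to 763 CPM, were also lower without overlap. The share of all genes without overlap was not counted. Umod, at 1377 to 4993 CPM in the slices and 1169 to 5718 CPM in the kidneys, overlapped fully. Stk39 was higher in the slices, at 64.5 to 108 CPM, than in any kidney, where it reached 56.0 CPM. Per kilobase of exon Stk39 was the fifth of the 10 genes in the vehicle slices and the last in healthy kidneys of both strains, while Slc9a3 was the last in the slices. The summed proximal tubule markers were 353 to 452 CPM in vehicle slices against 9431 to 10677 CPM in healthy BALB/c mice with vehicle, with no marker at 0. These levels cannot be attributed to any 1 of the differences between the experiments.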

How the data were processed

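RNA-Seq was performed on 30 mouse kidneys and 8 kidney slice cultures, and 1 table of raw counts of 55487 genes was deposited. Per the labels and methods, the authors demultiplexed with bcl2fastq 2.20.0, aligned reads with STAR 2.7.9a to GRCm38 with Ensembl 102 and obtained whole-number counts with featureCounts 1.5.1. The libraries came from a stranded kit, and the strand setting of the counting was not given in the sources used here.

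In vivo columns carry mouse names, which were matched to the labelled groups through column headers of the study's own tables. They give a group but not which labelled sample, and 1 column, whose number and name differ, was read as mouse NTS14 by its number. The labels give 4, 3, 4 and 3 mice to the anti-GBM groups, which differs from a count in the study's text. Mice were separate animals. The labels number the slice cultures as biological replicates, and a figure legend of the study calls these replicates biologically independent. Neither says whether the cultures came from separate mice. P-values there measure the spread between cultures, which may be partly technical. No 2 libraries of a group agreed within sampling noise (smallest chi-square per degree of freedom 2.12).

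Genes were filtered with filterByExpr (minimum count 10), scaled by TMM and tested with edgeR 4.0.16 (quasi-likelihood, R 4.3.3) in 1 fit per experiment, plus 1 fit of all 30 kidneys for the difference of the disease effects. P-values were adjusted by Benjamini-Hochberg over all genes tested in each of 14 comparisons, and tests are two-sided. Log2 CPM used a prior count of 2 for the genes most like each member and for the correlation of slice replicates. Correlations between members used no prior count, and marker sums had a small constant added before the log. DESeq2 1.42.0, RLE scaling, other filters, a robust fit, a fold threshold, fits of only the groups compared and leaving out each library were tried. The scripts were tested on simulated data. Positions and exon lengths are from GENCODE M21 (GRCm38). Depth per library is given in the report, and intervals are at 95%.

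The 10 genes, the list of 38 further genes and the marker lists were chosen with earlier results of these data known. All 10 are named in each disease comparison or summarised by range. Of the 38, those called are named up to the 5 of smallest p in each direction, together with the fixed partner genes Klhl3, Cul3, Nedd4l, Sgk1, Nr3c2, Hsd11b2, Kcnj1 and Oxsr1. The values of 1 gene of that list are not reported here. Genes most like each member were the 3 of highest Pearson r.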

Additional observations from a re-analysis of the deposited data

Results flagged for a closer look

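Within the groups of 4 libraries, 80 sets of values were tested for a library far from the other 3, and 5 were found, where chance gives about 1 in 20. In the vehicle slices Scnn1b was 25.7 CPM in culture 3 and 18.3 to 19.6 CPM in the others. In the FGF23 slices culture 1 had the lowest Wnk1, 268 CPM against 288 to 290.2 CPM, and the highest Wnk4, 236 CPM against 84.8 to 96.5 CPM. Among the Adriamycin mice with FGF23, Ad14 had a Scnn1g of 66.8 CPM against 52.1 to 54.4 CPM, and Ad16 had a Slc12a3 of 1180 CPM against 906 to 946 CPM.

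The disease effect differed between the anti-GBM and the Adriamycin experiment, by edgeR's test of the difference, in 4 genes. On the log2 scale it differed by -0.74 for Slc9a3, 0.35 for Scnn1a, 0.41 for Scnn1b and 0.48 for Scnn1g. Strain, sex, FGF23 schedule and disease model differ between these experiments and cannot be told apart.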

How the results depend on the processing

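No called value changed direction under any alternative run. An added threshold of an absolute log2 fold change above 1 left 0 of the 10 genes in anti-GBM disease with vehicle, with FGF23 and over both treatments, and 0 in the difference from Adriamycin. Without the filter on low counts 5 genes were called in anti-GBM disease with FGF23. With 1 library left out, the number of the 10 genes called was 4 to 6 in anti-GBM disease with vehicle, 0 to 5 with FGF23, 5 to 6 over both treatments, 3 to 4 in the difference from Adriamycin and 0 to 1 in Adriamycin disease over both treatments. Slc9a3 in anti-GBM disease with FGF23 was not called when only the 2 groups compared were fitted (adjusted p = 0.0574), and Stk39 there was called by DESeq2 (adjusted p = 0.0413).

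Over all genes, DESeq2 called 155, 263 and 575 genes in Adriamycin disease with vehicle, with FGF23 and over both treatments, where edgeR called 53, 112 and 310. For FGF23 DESeq2 called 153 in anti-GBM mice (edgeR 38), 35 in Adriamycin mice (6), 16 in healthy BALB/c mice (0) and 2 in slices (0), and for the interactions 44 (5) and 4 (0). Without the filter these counts were 98 in Adriamycin disease with vehicle, 60, 21, 1 and 2 for FGF23 in the same order, and 29 and 1 for the interactions. Fits of only the groups compared called 19 and 43 in Adriamycin disease with vehicle and with FGF23, and 12 and 3 for FGF23 in anti-GBM and Adriamycin mice. RLE scaling called 3 for the anti-GBM interaction. With the fold threshold 1554, 1444 and 1596 genes remained in anti-GBM disease with vehicle, with FGF23 and over both, 31, 31 and 55 in Adriamycin disease, 25 and 1 for FGF23 in anti-GBM and Adriamycin mice, and 1780 in the difference. The causes were not tested.

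For the slices, the deviations of samples with the same replicate number correlated with r = 0.107, 0.105, -0.105 and 0.112. As 1 of the 4 was negative the reported fit did not pair them, and whether equal numbers share a mouse is not given in the sources used here. With the replicate block 0 of the 10 genes and 0 of all genes were called, with Slc12a1 at 0.77 (edgeR adjusted p = 0.705), and the samples numbered 2 and 4, not 1 and 3, correlated best with their own number. No paired analysis was possible in vivo because the columns carry mouse names and no replicate numbers. With 3 or 4 libraries a group, intervals in vivo were widest for Slc12a1.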
